A study of Homo sapiens with 8 samples.

Results

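The insulin-like growth factor binding proteins (IGFBPs) are secreted proteins that bind the insulin-like growth factors IGF1 and IGF2 outside the cell and control how much of them reaches the growth-promoting receptor IGF1R. IGFBP1 to IGFBP6 bind IGFs with high affinity, whereas IGFBP7 binds them weakly. IGFBP3 carries most of the IGF in the circulation, and in prostate and breast cancer cells it is known as a gene that both vitamin D and TGF-β can induce and as a protein with growth-inhibiting actions of its own. The 7 genes IGFBP1 to IGFBP7 were taken by symbol from the platform's probe list, out of 33616 genes with a symbol. Each had 1 feature on the array, and all 7 were among the 23854 genes tested.

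The measurements come from PC-3 cells, an androgen-independent line established from a bone metastasis of a human prostate cancer, hybridised to Clariom D arrays. The cells were grown in medium with fetal bovine serum, which itself contains IGFs, and were left untreated (control), or received 10 nM calcitriol, 5 ng/mL of TGF-β1, or the 2 together, for 24 h. Calcitriol is the active vitamin D hormone. TGF-β1 is a cytokine and signals through SMAD transcription factors. There were 4 groups of 2 arrays, 8 in all, labelled A and B and described as independent experiments of 1 cell line, and no vehicle is given for the controls. Values are the authors' deposited log2 levels. A level is comparable between arrays for the same gene, not between genes.

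A known target of each agent rose. CYP24A1, which degrades calcitriol, was at 9.94 and 9.96 on the calcitriol arrays against 5.48 and 5.51 in control (limma adjusted p = 0.0247, up to 0.362 over the alternatives), and TGFBI, a TGF-β-induced matrix protein, was at 10.39 and 10.47 with TGF-β1 against 7.30 and 7.01 (limma adjusted p = 0.000464). With both agents CYP24A1 was at 10.92 and 9.71, further apart than its arrays in any other group, and TGFBI at 10.37 and 10.31. PMEPA1 and SMAD7, also read as checks, rose by 1.19 and 0.81 with TGF-β1 (limma adjusted p = 0.0124 and 0.0466). With calcitriol PMEPA1 differed from control by -0.30, SMAD7 by 0.12 and VDR, the vitamin D receptor, by -0.30. None of these differences passed (limma adjusted p from 0.636 to 0.860). The epithelial markers EPCAM, KRT8, KRT18, KRT19 and CDH1 lay above background on all arrays, with means per array between 10.38 and 10.60. The endothelial genes KDR and TEK, the leukocyte gene LYZ and the fibroblast gene THY1 were not above it on any of the 8. Above it on part of the arrays were the fibroblast genes LUM (2), PDGFRB (4) and DCN (7), the endothelial gene PECAM1 (4) and the leukocyte gene CD3E (6). Above it on all 8 were the fibroblast genes COL1A1 and COL1A2, with means of 8.66 and 7.80. So were the leukocyte genes CD14 (5.97) and CD68 (8.68) and the endothelial genes CDH5 (5.88) and VWF (6.11). In each group 2 or 3 of 6 fibroblast, of 5 leukocyte and of 5 endothelial markers were above background on both arrays, and of these lists 1 gene passed in a comparison with control, the leukocyte gene PTPRC, above background on 1 array and lower by -0.78 ± 0.11 with both agents (adjusted p = 0.0244). KLK3, the gene for prostate-specific antigen, which PC-3 cells are described as lacking, lay between 6.64 and 7.14 and above background on all arrays. An array's background was set at percentile 95 of its 612 negative control features. The distance from negative to positive control features was smallest with both agents, at 6.74 ± 0.051 against 7.03 ± 0.015 log2 units in control (SD, n = 2), and the median difference of protein-coding genes in that comparison was -0.12. The part of this shift, or of what moved PTPRC, in the small differences given below was not tested.

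The promoter of IGFBP3 is shown because it is the family member whose level moved, that of IGFBP4 because it resembles it in base composition while its gene did not pass in any comparison, and that of IGF1R because the receptor's level moved too. The windows run from 250 bases before the transcription start to 50 bases after it, on the coding strand, from RefSeq (GRCh38.p14), which held windows for 5 of the 7 family members. Capitals mark GGGCGG or its reverse complement, the core of the GC box.
IGFBP3, chr7:45921223-45921522, minus strand: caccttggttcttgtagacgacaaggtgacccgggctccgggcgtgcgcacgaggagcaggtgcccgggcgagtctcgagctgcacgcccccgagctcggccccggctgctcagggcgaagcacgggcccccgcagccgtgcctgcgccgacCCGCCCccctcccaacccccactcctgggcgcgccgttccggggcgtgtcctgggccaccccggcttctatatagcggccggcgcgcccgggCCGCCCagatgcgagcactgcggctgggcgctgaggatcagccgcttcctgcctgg
IGFBP4, chr17:40443200-40443499, plus strand: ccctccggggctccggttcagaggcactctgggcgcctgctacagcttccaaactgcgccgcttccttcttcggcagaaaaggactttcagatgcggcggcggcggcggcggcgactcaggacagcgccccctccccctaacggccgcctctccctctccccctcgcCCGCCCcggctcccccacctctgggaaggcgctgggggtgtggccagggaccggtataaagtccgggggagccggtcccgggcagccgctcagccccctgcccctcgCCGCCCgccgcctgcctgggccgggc
IGF1R, chr15:98648289-98648588, plus strand: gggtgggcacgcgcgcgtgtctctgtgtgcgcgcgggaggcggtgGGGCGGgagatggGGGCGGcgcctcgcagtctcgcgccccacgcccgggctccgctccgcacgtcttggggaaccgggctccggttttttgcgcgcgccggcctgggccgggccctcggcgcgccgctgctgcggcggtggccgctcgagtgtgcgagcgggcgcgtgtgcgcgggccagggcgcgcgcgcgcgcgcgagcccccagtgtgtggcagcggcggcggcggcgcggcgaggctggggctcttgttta

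The IGFBP3 window was 74.7% G and C and held GGGCGG at 98 and at 6 bases before the start. The IGFBP4 window was 74.0% G and C and also held the motif at a pair of places, 1 of them 83 bases before the start, and the IGF1R window at 205 and 192 bases before it. On either strand GGGCGG occurred in 45.0% of the 35116 windows of the table, so its presence is common. CAGACA, which holds the SMAD box, TGANTCA, the AP-1 site, and the receptor half-sites AGGTCA and AGTTCA were also searched on both strands. None of these 4 was in the IGFBP3, IGFBP4 or IGF1R window, against 16.9%, 7.71%, 13.8% and 10.4% of all windows. The DR3 arrangement, a direct repeat of AGGTCA or AGTTCA spaced by 3 bases, was in 0.0142% of windows and in no window of the family. A search of these bases says nothing of sites farther away.

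IGFBP3 was the member that changed, and it was higher after each treatment. Its level was 9.84 and 9.92 on the control arrays, 11.51 and 11.52 with calcitriol, 11.77 and 11.88 with TGF-β1, and 12.42 and 12.22 with both. The 4 groups did not overlap at any point, and the replicates of a group lay at most 0.20 apart. Taken pair by pair, the groups did not overlap for 36.7% to 54.3% of all genes. The share of genes with all 4 groups apart was not counted. On the linear scale control averaged 941 ± 38.2, calcitriol 2924 ± 15.0, TGF-β1 3629 ± 211 and the joint treatment 5110 ± 499 (SD, n = 2). In bulk RNA, a change in RNA per cell and a change in the share of cells that make it cannot be told apart.

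**Figure D1:**
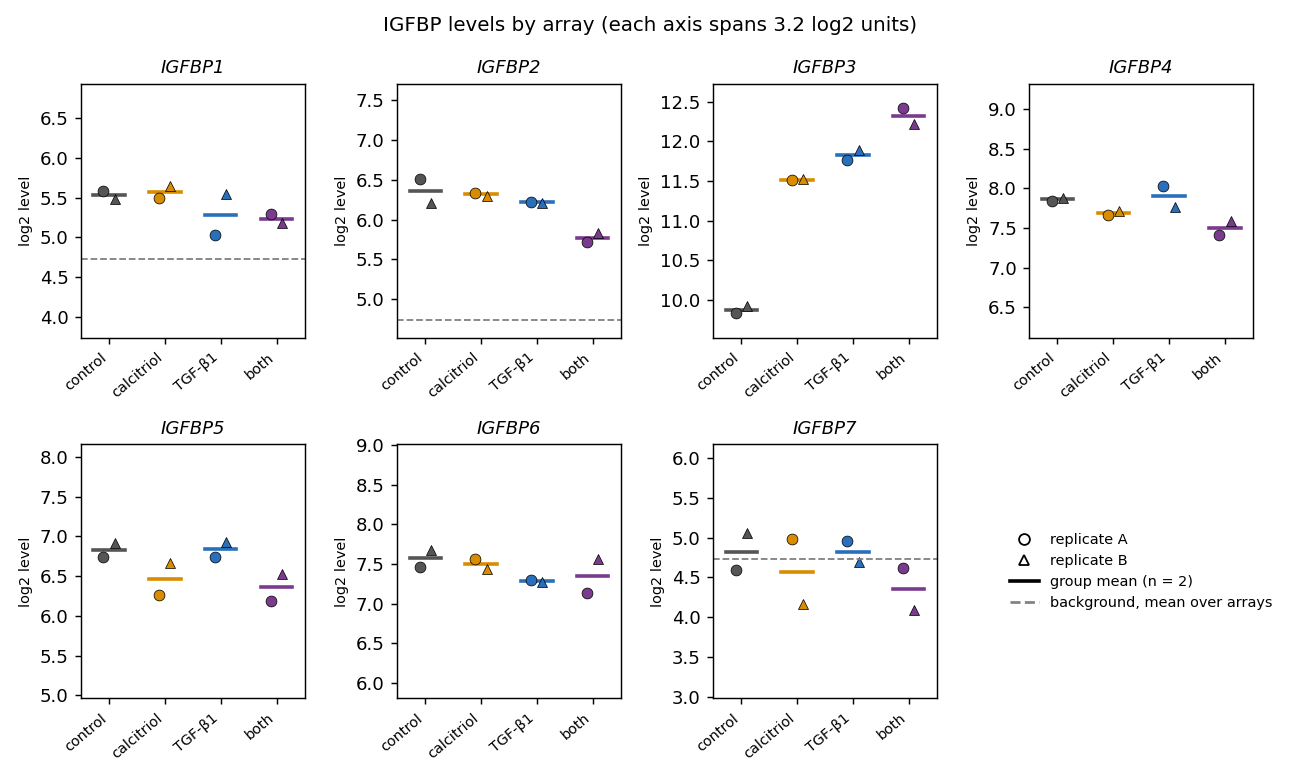
Log2 level of each IGFBP gene on every array, by treatment (circles replicate A, triangles replicate B, lines the mean of 2 arrays, dashed line the background where it falls in range). IGFBP3 steps up from 9.88 in control to 12.32 with both agents, while the other genes stay within about 1 log2 unit.

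Against control, the rise of IGFBP3 was 1.64 ± 0.11 on the log2 scale with calcitriol, or 3.11-fold (95% interval 2.60 to 3.71, SE, n = 2 per group, limma adjusted p = 0.0153). With TGF-β1 it was 1.95 ± 0.11, or 3.86-fold (3.23 to 4.61, adjusted p = 0.00105). With both it was 2.44 ± 0.11, or 5.42-fold (4.53 to 6.48, adjusted p = 0.000383). Adjusted p-values are by Benjamini-Hochberg over all 23854 genes, and a gene is said to have risen or fallen where its adjusted p is under 0.05. By size of rise IGFBP3 held rank 2 of the 23854 genes with calcitriol, rank 5 with TGF-β1 and rank 3 with both. These comparisons share the same 2 control arrays.

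The call for calcitriol was the least secure of the 3. It was lost without any single control, calcitriol or TGF-β1 array (adjusted p between 0.0818 and 0.314), when the replicate letter entered as a block (0.101), and when only the calcitriol and control arrays were fitted (0.203). The log2 rise was between 1.59 and 1.68 without single arrays. The rises with TGF-β1 and with both passed without any single array, at adjusted p of at most 0.0263 and 0.0106.

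The order of the groups was control, calcitriol, TGF-β1, both, and not every step in it passed. TGF-β1 over calcitriol was 0.31 ± 0.11 (95% interval 0.05 to 0.57, limma adjusted p = 0.457), and both over TGF-β1 was 0.49 ± 0.11 (0.23 to 0.75, adjusted p = 0.516). Neither step passed over all genes, although the arrays did not overlap. With 2 arrays a group that is common. The groups did not overlap for 36.7% of all genes in calcitriol against control, 43.2% in TGF-β1 against control, 54.3% in both against control, 48.4% in both against calcitriol, 44.1% in both against TGF-β1 and 39.8% in TGF-β1 against calcitriol. By adjusted p, 0% of genes passed for both over TGF-β1. The calcitriol target CYP24A1 missed it there too, at 4.09 ± 0.35 (limma adjusted p = 0.0935), so a miss in that comparison says little. For TGF-β1 over calcitriol 0.465% of genes passed, IGFBP3 not among them. Both over calcitriol was 0.80 ± 0.11, or 1.74-fold (95% interval of the fold 1.46 to 2.08, limma adjusted p = 0.0331). In that comparison 0.394% of all genes were called higher. The call of IGFBP3 there was lost without any 1 of the 8 arrays, with a log2 difference between 0.70 and 0.90.

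The joint effect of the agents depended on the scale on which it was read. Folds that multiplied would have put IGFBP3 at 13.46 on the log2 scale with both, or 11272 on the linear scale, and the measured mean was 12.32, lower by the interaction of -1.14 ± 0.16 (95% interval -1.51 to -0.78). By limma's unadjusted p this interaction held rank 2 of 23854 genes, but it did not pass over all genes (adjusted p = 0.552), and 0% of genes did. Of all genes, 1229 had an unadjusted p under 0.05 for it, where a uniform p would give 1192.7. With a variance trend and robust moderation in limma it passed (adjusted p = 2.69e-06), as did both over TGF-β1 (0.00652) and TGF-β1 over calcitriol (0.00822). The interaction was -1.02 among the arrays labelled A and -1.27 among those labelled B.

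Rises that added on the linear scale came closer. Calcitriol alone added 1983 units to the control level and TGF-β1 alone 2688, so their sum would give 5612, and the measured level with both was 5110, between 4757 and 5462 on the 2 arrays. The rise with both was 89.2% of the sum of the single rises. The difference from the sum was -503 ± 318 (95% interval -1188 to 183, limma adjusted p = 0.947), so neither an exact sum nor a shortfall was shown. It rested on single arrays, at -855 without joint-treatment array A, -150 without joint-treatment array B and -354 without TGF-β1 array B, and the 89.2% rests on the same arrays. The highest feature on the arrays with both agents stood at 13.52 and 13.44, and 148 and 227 of 138745 features stood above IGFBP3 there. Whether the range of the scanner limits the IGFBP3 value at such levels was not tested.

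**Figure D2:**
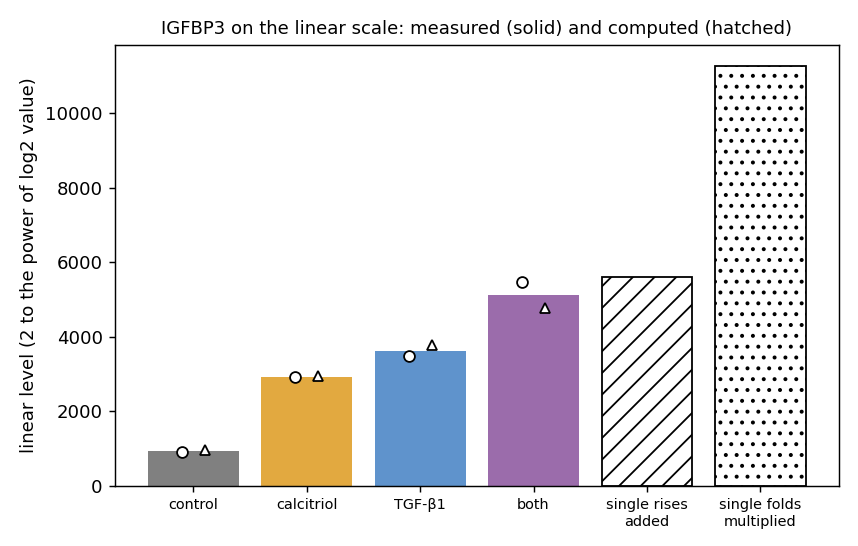
Linear level of IGFBP3 (solid bars, mean of 2 arrays; points, the arrays) beside the levels computed by adding the single rises or multiplying the single folds (hatched). The measured level with both agents, 5110, lies near the sum of 5612 and under the product of 11272.

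The other 6 members did not pass in any of the 7 comparisons. In the calcitriol, TGF-β1 and joint treatments, 1 of the 7 members rose in each, IGFBP3, against 0.00838%, 0.344% and 1.12% of all genes called higher, and 0 of the 7 fell, against 0%, 0.264% and 1.15% called lower. Against control the 6 ranged from -0.36 to 0.04 with calcitriol and from -0.28 to 0.04 with TGF-β1. With both agents they ranged from -0.59 to -0.23, and all 6 lay under 0, as did 58.6% of all genes. Their median there was -0.42, against -0.06 over all genes tested, and -0.30 after cyclic loess over protein-coding genes, which brought the median of those genes to -0.0043.

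**Figure D3:**
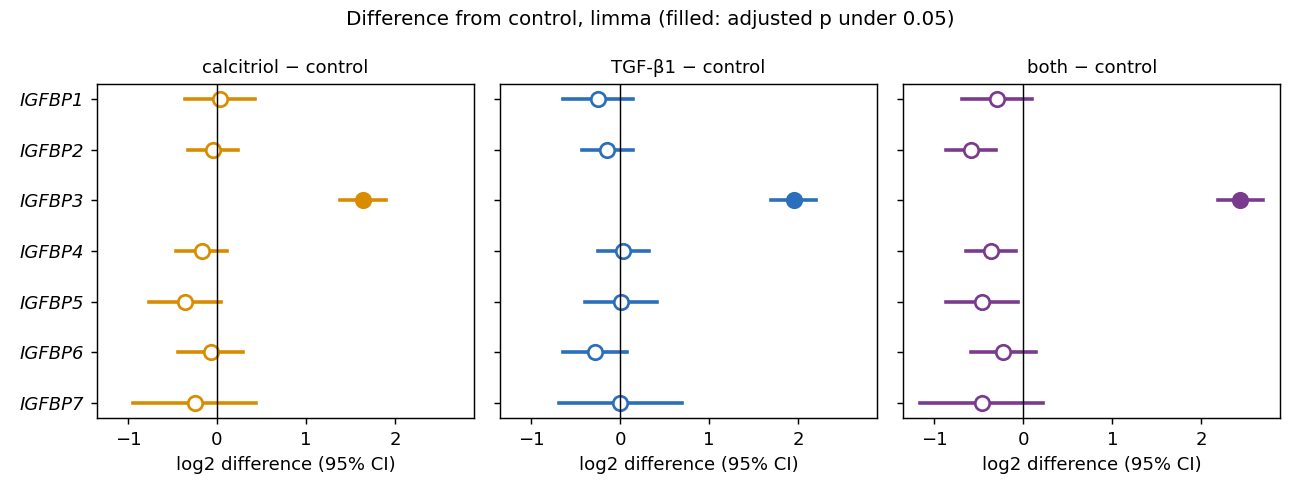
Log2 difference from control for the 7 genes with 95% intervals from limma (4 groups of 2 arrays), filled where the adjusted p is under 0.05. IGFBP3 stands at 1.64, 1.95 and 2.44, and the intervals of IGFBP2, IGFBP4 and IGFBP5 lie under 0 with both agents without passing over all genes.

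IGFBP2, which is often raised in prostate tumours and has been tied to their growth, came closest to a call. Its level was 6.51 and 6.21 in control, 6.33 and 6.30 with calcitriol, 6.22 and 6.21 with TGF-β1, and 5.71 and 5.83 with both. The 2 arrays with both agents lay under the other 6, as they did for 12.4% of all genes. The difference from control was -0.59 ± 0.12 (95% interval -0.87 to -0.30, limma adjusted p = 0.0550), that from calcitriol -0.55 ± 0.12 (adjusted p = 0.134) and that from TGF-β1 -0.44 ± 0.12 (adjusted p = 0.523). Tested among protein-coding genes alone, the difference from control passed (limma adjusted p = 0.0336), as it did with variance trend and robust moderation (0.0176). These were 2 of 15 alternatives, and in the other 13 the difference did not pass. After cyclic loess it was -0.48 (limma adjusted p = 0.0740), and without single arrays it was between -0.74 and -0.44. With calcitriol alone IGFBP2 differed from control by -0.04 and with TGF-β1 alone by -0.14, and the interaction was -0.40 ± 0.17 (adjusted p = 0.954).

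IGFBP5, a binding protein that attaches to extracellular matrix, lay lower on the calcitriol arrays without passing. It was at 6.74 and 6.91 in control, 6.27 and 6.67 with calcitriol, 6.75 and 6.93 with TGF-β1, and 6.19 and 6.52 with both. All 4 arrays with calcitriol lay under all 4 without it, as in 2.96% of all genes, a split noticed after the values were seen, and the replicates with calcitriol lay 0.40 and 0.33 apart. The differences from control were -0.36 ± 0.17 with calcitriol (adjusted p = 0.707) and -0.47 ± 0.17 with both (adjusted p = 0.160), and that between both and TGF-β1 was -0.48 ± 0.17 (adjusted p = 0.526), so none passed in limma.

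IGFBP4, which mostly restrains IGF action and is cleaved by the protease PAPPA, also lay lower on the calcitriol arrays, by less, without passing. It was at 7.85 and 7.88 in control, 7.66 and 7.72 with calcitriol, 8.03 and 7.77 with TGF-β1, and 7.41 and 7.59 with both. The arrays with calcitriol again lay under those without it, the split shown by 2.96% of genes. Both agents together differed from control by -0.36 ± 0.12 (adjusted p = 0.136) and from TGF-β1 by -0.40 ± 0.12 (adjusted p = 0.523). The first of these passed with variance trend and robust moderation (adjusted p = 0.0459) and was -0.25 after cyclic loess (0.234).

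IGFBP1, a liver-type binding protein under insulin control, and IGFBP6, which prefers IGF2, did not pass either. IGFBP1 was at 5.58 and 5.49 in control, 5.50 and 5.64 with calcitriol, 5.03 and 5.54 with TGF-β1, and 5.30 and 5.17 with both, and the 0.52 between the TGF-β1 arrays exceeded every difference of its group means. The arrays with both agents lay under those of control and calcitriol, by -0.30 ± 0.17 and -0.34 ± 0.17 in the means. In these comparisons the groups did not overlap for 54.3% and 48.4% of all genes. IGFBP6 was at 7.46 and 7.68 in control, 7.57 and 7.44 with calcitriol, 7.31 and 7.27 with TGF-β1, and 7.13 and 7.56 with both. The arrays with TGF-β1 alone lay under those of control, by -0.28 ± 0.16 in the means, where the groups did not overlap for 43.2% of all genes. The differences of IGFBP1 and IGFBP6 from control had limma adjusted p-values between 0.320 and 0.974. IGFBP1 is the direct neighbour of IGFBP3 on chromosome 7, with no annotated gene between them, and differed from control by 0.04 with calcitriol, where IGFBP3 rose by 1.64.

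IGFBP7, the weak IGF binder, which acts as a matrix and vessel-wall protein, was near background. Its level was 4.59 and 5.06 in control, 4.98 and 4.17 with calcitriol, 4.96 and 4.69 with TGF-β1, and 4.62 and 4.09 with both. It was above background on 3 of the 8 arrays, with 1 each in the control, calcitriol and TGF-β1 groups and 0 with both agents, so no fold is given. Its intervals were the widest of the family, from -0.94 to 0.44 for calcitriol against control.

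The rest of the IGF system was read from 5 lists of 70 genes, of which 59 were tested. Over these, 0 changed with calcitriol in limma, 1 rose with TGF-β1 (1.69%) and 4 rose with both (6.78%), and 0 fell in any of the 3. Of all genes 0.00838%, 0.344% and 1.12% were called higher and 0%, 0.264% and 1.15% lower. The lists were chosen with earlier results of these data known, so the shares are a description. At an unadjusted p under 0.05 there were 7, 12 and 14 list genes, or 11.9%, 20.3% and 23.7% of the lists, against 7.34%, 12.6% and 23.8% of all genes. The median difference with both was -0.03 over the lists and -0.06 over all genes.

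Of the ligands and receptors, IGF1R, the tyrosine kinase that IGF1 and IGF2 activate and that IGFBPs shield from them, rose wherever TGF-β1 was given. Its level was 7.89 and 8.03 in control, 7.88 and 7.87 with calcitriol, 9.07 and 9.00 with TGF-β1, and 8.90 and 8.95 with both. All 4 arrays with TGF-β1 lay above all 4 without it, as in 4.49% of all genes. The rise was 1.08 ± 0.10 with TGF-β1, or 2.11-fold (SE, n = 2 per group, limma adjusted p = 0.0105), and 0.97 ± 0.10 with both, or 1.95-fold (adjusted p = 0.00868). With calcitriol it differed from control by -0.09 ± 0.10 (adjusted p = 0.886), and its interaction was -0.02 ± 0.14 (95% interval -0.35 to 0.31, adjusted p = 0.998). Without either TGF-β1 or either control array its rise with TGF-β1 missed the threshold (adjusted p between 0.0518 and 0.113), as it did when only those 2 groups were fitted (0.109), with a log2 rise of 1.01 to 1.15. Its rise with both missed it without either joint-treatment array or control array B (adjusted p between 0.0524 and 0.0780).

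IGF2, the growth factor that many tumour lines make themselves, did not pass. It was at 7.47 and 7.70 in control, 7.17 and 7.42 with calcitriol, 7.94 and 8.03 with TGF-β1, and 7.80 and 7.82 with both. The arrays with TGF-β1 lay above those without it, again the split of 4.49% of genes, with differences from control of 0.40 ± 0.13 (adjusted p = 0.271) with TGF-β1, 0.23 ± 0.13 (0.318) with both and -0.29 ± 0.13 (0.692) with calcitriol. IGF1 stayed between group means of 6.46 and 6.50. The scavenger receptor IGF2R, which removes IGF2, differed from control by -0.34 ± 0.10 with both (adjusted p = 0.105). The insulin receptor INSR and the related orphan receptor INSRR did not pass in any comparison, with differences from control between -0.18 and 0.15.

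**Figure D4:**
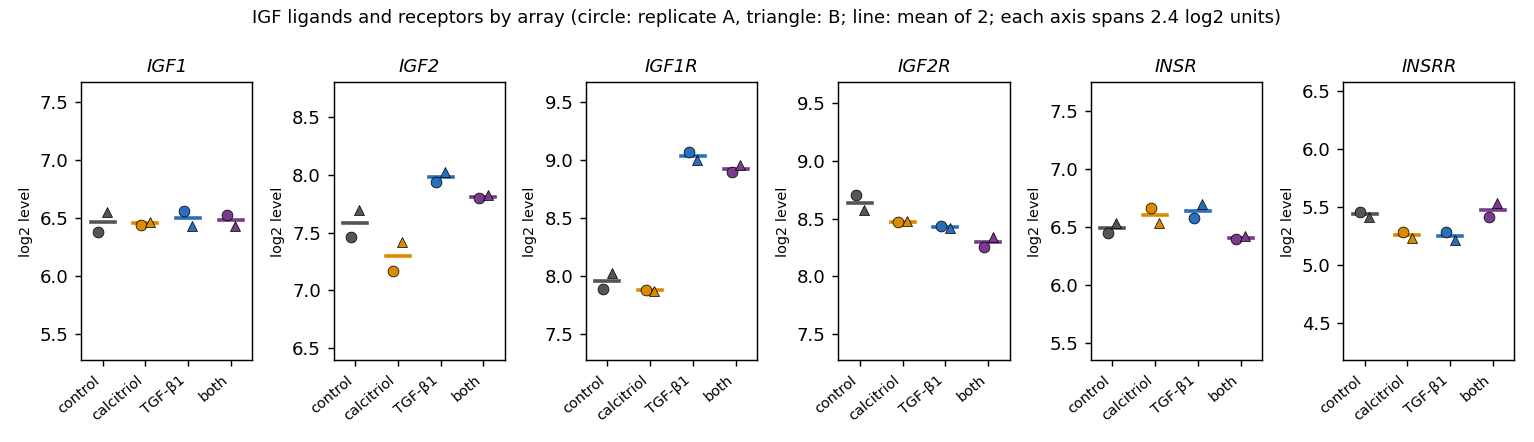
Log2 levels of the IGF ligands IGF1 and IGF2 and of 4 receptors on every array, by treatment (circles replicate A, triangles replicate B, lines the mean of 2 arrays). IGF1R lies between 8.90 and 9.07 on the 4 arrays with TGF-β1 and between 7.87 and 8.03 on the 4 without it.

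Of 16 tested proteins that cleave IGFBPs, bind them or act on their proteases, 2 rose with both agents. In that comparison 1.12% of all genes were called higher. ADAMTS1, a metalloproteinase able to cleave matrix proteins, was at 7.12 and 7.23 in control and 7.87 and 8.07 with both (0.79 ± 0.11, limma adjusted p = 0.0199). It stood at 7.73 and 7.70 with calcitriol alone and at 7.69 and 7.72 with TGF-β1 alone, and passed against control in neither. PLAU, the urokinase that turns plasminogen into plasmin, an IGFBP-cleaving protease, was at 11.53 and 11.50 in control and 12.02 and 11.95 with both (0.47 ± 0.09, adjusted p = 0.0488). PLAU stood at 12.00 and 12.02 with TGF-β1 alone (0.49 ± 0.09, adjusted p = 0.0843). PAPPA, the protease best known for IGFBP4, was above background on 1 of 8 arrays, and its relative PAPPA2 on 0. Without single arrays the adjusted p ran from 0.0450 to 0.112 for ADAMTS1, which passed only without a calcitriol array, and from 0.0821 to 0.183 for PLAU, which was lost without any 1 of the 8.

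Other proteins built around an IGFBP domain did not pass. Of 12 tested, among them the CCN matricellular proteins, HTRA1 and ESM1, 0 rose or fell in the 3 comparisons with control, where the lowest and highest differences were -0.52 and 0.47. Of 22 genes acting downstream of IGF1R and the insulin receptor, 0 rose or fell, with differences from -0.48 to 0.50. Over all genes, the largest shares called in these 3 comparisons were 1.12% higher and 1.15% lower, both under the joint treatment. Counts of 0 among 12 or 22 genes therefore say little about whether these lists respond. IRS1, the adaptor that couples IGF1R to PI3-kinase, differed from control by -0.48 ± 0.11 with TGF-β1 (limma adjusted p = 0.146). It stood at the low end of the 22, whose median with TGF-β1 was -0.05 and whose highest difference was 0.50. Of the 3 IGF2 mRNA-binding proteins, IGF2BP3 rose with both agents, from 7.76 and 7.68 to 8.18 and 8.35 (0.54 ± 0.11, adjusted p = 0.0490), a call lost without any 1 of the 8 arrays (adjusted p from 0.0818 to 0.178).

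The protein-coding genes whose levels followed IGFBP3 most closely over the 8 arrays were, by Pearson's r, the hair keratin KRT34 (0.985), the metalloproteinase inhibitor TIMP1 (0.985), the matrix protein MATN2 (0.980), the peptidase NAALADL1 (0.978) and the actin-binding ZNF185 (0.971). They were picked as the highest of all tested genes over arrays that share 4 treatment groups. With both agents their log2 differences from control were 2.33 for KRT34, 0.73 for TIMP1, 0.81 for MATN2, 0.33 for NAALADL1 and 0.61 for ZNF185, beside 2.44 for IGFBP3. Their direction follows from how they were picked, so no test is given. Within the family, the r of IGFBP3 with the other members ran from -0.70 for IGFBP2 to -0.36 for IGFBP7, and the highest r between members was 0.77 for IGFBP4 with IGFBP5.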

How the data were processed

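Total RNA was measured on 8 Clariom D arrays in 4 groups of 2, grouped by sample title. The values are log2 levels for 138745 features as deposited by the authors. The submitters' processing notes list RMA with the packages oligo and limma but give no version or order. The log base follows from usual RMA output, and the genome build of the features is not given in the sources used here. Array medians lay between 4.33 and 4.35.

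Features were named through the platform's probe list. The feature with the highest mean was taken per gene, and genes above 4.34, the 50th percentile of all values, on at least 2 arrays were tested (23854). A limma model (3.58.1, R 4.3.3) with 1 mean per group and empirical Bayes moderation (4 residual degrees of freedom) gave 7 two-sided contrasts, adjusted by Benjamini-Hochberg over all genes and called at 0.05. The linear-scale interaction used 2 to the power of each value and a variance trend. The fit was tested on simulated data. Exact permutation with 2 against 2 arrays cannot reach 0.05.

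Named genes were the 7 members, the treatment checks, the ligands and receptors, list genes called in any contrast, and the 5 genes most like a called member. IRS1, PTPRC, PAPPA, PAPPA2, HTRA1, ESM1 and the CCN proteins were named after their values were seen. So were the markers KDR, TEK, LYZ, THY1, LUM, PDGFRB, DCN, PECAM1, CD3E, COL1A1, COL1A2, CD14, CD68, CDH5 and VWF. The members and lists were chosen with earlier results of these data known. Alternatives were the filter, the genes tested, cyclic loess, median centring, the replicate block, the groups fitted, the moderation and each array left out. Another feature per member could not be tried, since each has 1. Listed genes without a feature in the probe list, among them INS, were not analysed here.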

Additional observations from a re-analysis of the deposited data

How the results depend on the processing

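With 2 arrays per group, the counts of changed genes moved with almost every choice. In this balanced design the filter, the genes tested, the block, the groups fitted and the moderation leave every log2 difference as it is, so only its adjusted p can move under them. The numbers of genes called with TGF-β1, with both agents, for both over calcitriol and for TGF-β1 over calcitriol were 38, 134, 56 and 40 with no filter on low values. There the difference of IGFBP3 between both and calcitriol, 0.80, had an adjusted p of 0.0876, leaving 0 of 7 family members. Among protein-coding genes alone 247 genes were called with TGF-β1, 977 with both and 177 for TGF-β1 over calcitriol, and 2 family members with both, IGFBP3 and IGFBP2. After cyclic loess 278 were called with TGF-β1 and 195 for TGF-β1 over calcitriol. Median centring moved no count by over 1.5 times.

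With the replicate letter as a block, 0 genes were called with calcitriol, 43 with TGF-β1, 213 with both, 66 for both over calcitriol and 50 for TGF-β1 over calcitriol, and 0 family members with calcitriol and for both over calcitriol. The IGFBP3 differences of 1.64 with calcitriol and 0.80 for both over calcitriol then had adjusted p of 0.101 and 0.0769. Deviations of same-lettered arrays from their group means correlated between -0.084 and 0.081 across genes, so the letters were not shown to pair arrays. With the groups of each comparison alone, 1, 12, 14, 2 and 29 genes were called in the same order, and IGFBP3 missed the threshold at 1.64 (adjusted p = 0.203) and 0.80 (0.140), leaving 0 members in both. With variance trend and robust moderation 18, 762, 3072, 1059 and 438 genes were called, 5 for both over TGF-β1 and 2 for the interaction. It called 3 family members with both, and 1, IGFBP3, for both over TGF-β1 (0.49), TGF-β1 over calcitriol (0.31) and the interaction (-1.14).

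Leaving out each array in turn gave 0 to 2 genes with calcitriol, 12 to 48 with TGF-β1, 13 to 218 with both, 0 to 83 for both over calcitriol, 0 to 1 for both over TGF-β1 and 1 to 79 for TGF-β1 over calcitriol. A group left with 1 array was assumed to vary like the others. Family members called were 0 to 1 with calcitriol and 0 for both over calcitriol, with IGFBP3 between 1.59 and 1.68 and between 0.70 and 0.90.

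No called value turned its sign. Of 1230 values that passed neither in the reported fit nor in the alternative, the sign differed in 50. Using another feature per gene was not run, since each member has 1, and the interaction has no fit with the groups of 1 comparison.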
